A study of Mus musculus with 4 samples.

Results

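The 8 Gimap genes (Gimap1, Gimap3, Gimap4, Gimap5, Gimap6, Gimap7, Gimap8 and Gimap9) encode GTPases of immunity-associated proteins, and they were read out in 4 RNA-seq libraries of mouse regulatory T cells (Tregs). They were chosen by name. All 8 names were found among the 28032 listed features that have an exon length, and 0 other listed features carried a Gimap name. The cells were sorted by CD4 and Foxp3 from C57BL/6 mice aged 8 weeks, which were wild type (WT) or labelled Csnk2b-/-, here called Csnk2b-deficient. Csnk2b is the regulatory subunit of the protein kinase CK2. The labels name no promoter, Cre line or allele for the deletion, and they do not say how many mice gave each library. Each genotype was sequenced in 1 library from the spleen and 1 from the tracheal lymph nodes, so a genotype has 2 libraries and a genotype within a tissue has 1. Whether the libraries came from separate mice is not stated, so p-values measure only the spread between these libraries, which may be technical.

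GIMAP proteins are guanine nucleotide-binding proteins found mainly in lymphocytes, where they sit on the membranes of lysosomes, mitochondria, the endoplasmic reticulum and other organelles. Loss of GIMAP5 in rats and mice depletes peripheral T cells, and loss of GIMAP1 depletes mature T and B cells, so the family is known for lymphocyte survival. The genes lie side by side in 1 cluster, and each protein carries a GTP-binding domain whose P-loop holds the phosphates of the nucleotide.

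In the deposited coordinates (mm9) the cluster spanned chr6:48597233-48716518, a stretch of 119.3 kb. From low to high coordinates came Gimap8 (chr6:48597233-48610874), Gimap9 (chr6:48626128-48629113), Gimap4 (chr6:48634548-48642061) and Gimap6 (chr6:48651581-48658224). Then followed Gimap1 (chr6:48668606-48702599), Gimap7 (chr6:48668620-48674635), Gimap5 (chr6:48696196-48704209) and Gimap3 (chr6:48715088-48716518). Of these, 5 stood clear of other listed genes. The listed Gimap1 interval was 33994 bases long and held all of Gimap7, the predicted gene Gm3345 and part of Gimap5, whereas the Gimap1 gene model of GENCODE M21 (GRCm38) spans 4742 bases.

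The P-loop is shown because every member encodes it, and because it shows how alike the members are where reads have to be told apart. Each line gives coding sequence from the GENCODE M21 transcript, 5′ to 3′, with the 24 bases of the P-loop (the Walker A motif) in capitals and 15 bases on either side. GIMAP8 is the member with 3 GTP-binding domains in its 688 residues, and 3 P-loops were found in it, against 1 in each of the others, which are 291 to 328 residues long.
Gimap1: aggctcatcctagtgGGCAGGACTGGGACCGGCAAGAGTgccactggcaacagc
Gimap3: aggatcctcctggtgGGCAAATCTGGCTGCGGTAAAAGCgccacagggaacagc
Gimap5: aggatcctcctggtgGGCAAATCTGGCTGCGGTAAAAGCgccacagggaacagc
Gimap4: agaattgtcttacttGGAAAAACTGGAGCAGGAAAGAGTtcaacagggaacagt
Gimap6: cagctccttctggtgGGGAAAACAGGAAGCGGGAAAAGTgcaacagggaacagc
Gimap7: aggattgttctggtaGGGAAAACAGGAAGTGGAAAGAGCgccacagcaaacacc
Gimap9: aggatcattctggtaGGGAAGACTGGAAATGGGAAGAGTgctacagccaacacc
Gimap8 loop 1: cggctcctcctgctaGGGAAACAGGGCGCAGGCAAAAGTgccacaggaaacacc
Gimap8 loop 2: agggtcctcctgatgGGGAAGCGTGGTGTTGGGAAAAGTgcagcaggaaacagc
Gimap8 loop 3: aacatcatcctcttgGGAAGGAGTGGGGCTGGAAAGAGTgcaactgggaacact
Gimap3 and Gimap5 had the same bases over all 54 positions shown. Over whole coding sequences the 28 pairs of members had a median identity of 57.7%, the lowest being Gimap4 with Gimap5 at 52.9%. Gimap3 with Gimap5 reached 87.85% with a longest shared run of 140 bases, Gimap7 with Gimap9 came next at 65.1%, and no other pair shared a run of over 17 bases.

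The stretch in which Gimap3 and Gimap5 are hardest to tell apart is printed because reads from it could be placed in either gene. The 150-base coding window below held 1 difference, in capitals, and runs from base 146 of the Gimap3 coding sequence and base 158 of the Gimap5 coding sequence.
Gimap3: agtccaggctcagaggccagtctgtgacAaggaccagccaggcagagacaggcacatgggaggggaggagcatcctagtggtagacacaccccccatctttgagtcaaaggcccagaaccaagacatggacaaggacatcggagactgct
Gimap5: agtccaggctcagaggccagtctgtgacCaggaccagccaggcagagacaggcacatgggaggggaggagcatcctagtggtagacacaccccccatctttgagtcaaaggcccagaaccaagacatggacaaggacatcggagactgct

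The libraries held 4737814 to 6750695 exon reads, of which 78.3% to 86.2% were uniquely placed. Genes with an exon read numbered 15515 in WT spleen, 14962 in Csnk2b-deficient spleen, 12157 in WT lymph node and 14335 in Csnk2b-deficient lymph node. Log2 CPM values correlated at 0.978 within the spleen pair and 0.899 within the lymph node pair. The part of this in the Gimap ratios was not tested. Csnk2b itself had 82.3 CPM (read counts scaled to library size) in the WT spleen library, 25.6 in the Csnk2b-deficient spleen library, 163 in the WT lymph node library and 62.0 in the Csnk2b-deficient lymph node library. It lay below WT in both tissues, by a log2 fold change of -1.54 ± 0.26 (SE, edgeR, adjusted p = 0.0658). The T cell markers Cd3d, Cd3e, Cd3g and Cd4 were read in every library, as were the Treg markers Foxp3, Il2ra, Ctla4 and Ikzf2. Foxp3, the transcription factor by which the cells were sorted, was lower in the Csnk2b-deficient libraries (log2 fold change -1.66 ± 0.25, edgeR, adjusted p = 0.0375).

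The 8 genes together took 0.465% of exon reads in WT spleen, 0.478% in Csnk2b-deficient spleen, 0.389% in WT lymph node and 0.582% in Csnk2b-deficient lymph node. Their summed level was 3981 CPM in WT spleen, 4029 in Csnk2b-deficient spleen, 4501 in WT lymph node and 7025 in Csnk2b-deficient lymph node. The Csnk2b-deficient lymph node library was thus the high one, and the spleen libraries were close to each other. Gimap4 was the largest contributor in every library, with 28.95% and 30.6% of the summed reads in the WT and Csnk2b-deficient spleen libraries and 41.2% and 44.9% in the lymph node libraries in the same order. Gimap4 with the next most read gene made up 49.0% and 49.8% in the spleen libraries but 77.1% and 78.9% in the lymph node libraries. In sorted cell populations, a change in the number of expressing cells and a change in RNA per cell cannot be told apart.

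Levels per exon length differed widely among the members. On the scale of CPM per kilobase of exon, Gimap3 was first in the spleen at 880 in WT and 818 in Csnk2b-deficient cells, followed by Gimap4 at 627 and 671. The Gimap3 exon length listed in the files, 906 bases, equals its coding length in GENCODE, where the transcript has 2145 bases, so its level per kilobase rests on the coding part alone. In the lymph node libraries Gimap4 was first at 1007 and 1715 CPM per kilobase, followed by Gimap6 at 462 and 684. Gimap3 came after these, at 267 and 383. The lowest levels per kilobase were those of Gimap7 in the spleen (8.00 and 11.7) and of Gimap5 in the lymph nodes (13.9 and 23.7). Gimap7 lies inside the listed Gimap1 interval. Of the gene reads of Gimap1 and Gimap7 that were not uniquely placed, 1.29% (WT spleen) to 11.8% (Csnk2b-deficient lymph node) were counted in Gimap7. How such reads were assigned is not stated, and the part of this in the Gimap7 level was not tested.

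**Figure D1:**
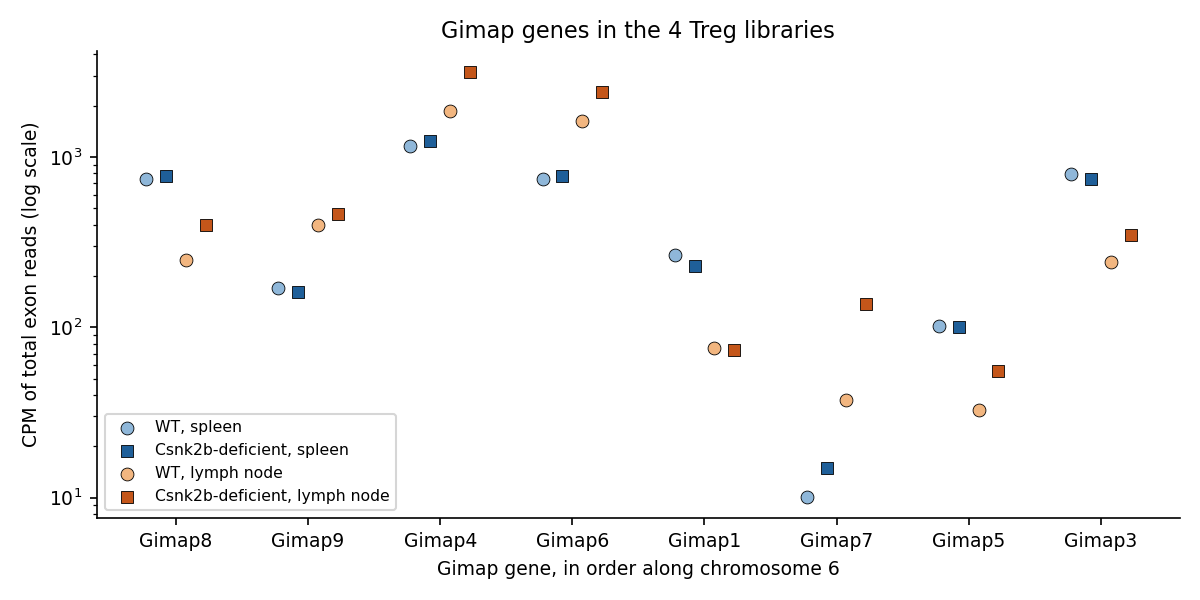
CPM of total exon reads (log axis) of each Gimap gene, in order along chromosome 6, with 1 point per library; circles are WT and squares Csnk2b-deficient, blue spleen and orange lymph node. Gimap9, Gimap4, Gimap6 and Gimap7 sat higher in the lymph node libraries and Gimap8, Gimap1, Gimap5 and Gimap3 lower, while the genotypes lay within 1.47-fold of each other in the spleen.

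Genotype was compared first, within tissue. None of the 8 genes passed the edgeR test for a difference between Csnk2b-deficient and WT cells at an adjusted p of 0.05, where 0.144% of the 11113 genes tested did so. At an unadjusted p below 0.05 there were 2 of 8, Gimap4 and Gimap7, against 4.88% of all genes. Within the spleen pair 4 of 8 lay above 0 on the log2 scale (46.4% of all genes). In the lymph node pair 7 of 8 did (52.1% of all genes). In both pairs 4 of 8 did (27.7% of all genes), and 1 of 8 lay below 0 in both (29.2% of all genes). The median log2 ratio of the 8 was 0.01 for the spleen, with -0.02 for all genes tested, and 0.63 for the lymph nodes, with 0.03 for all genes tested. With limma-voom 1 of 8 passed, Gimap7, where 0.576% of all genes did.

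Among the genes known for lymphocyte survival, Gimap1, whose product is needed by mature T and B cells, had 264 CPM in WT spleen, 230 in Csnk2b-deficient spleen, 75.5 in WT lymph node and 73.4 in Csnk2b-deficient lymph node. It was the 1 member whose Csnk2b-deficient library was the lower in both tissues. The spleen ratio was 0.870-fold with a 95% Clopper-Pearson interval of 0.812 to 0.933, and the lymph node ratio was 0.972-fold with an interval of 0.831 to 1.14. These intervals cover counting error only, since reads without molecular identifiers are not independent molecules. The fit over both tissues gave a log2 fold change of -0.12 ± 0.22 (SE, adjusted p = 0.947).

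Gimap5, whose product is needed for survival of peripheral T cells, had 102 CPM in WT spleen, 101 in Csnk2b-deficient spleen, 32.8 in WT lymph node and 55.7 in Csnk2b-deficient lymph node. The interval of the spleen ratio included 1 (0.987-fold, 0.885 to 1.099), and the Csnk2b-deficient lymph node library was 1.70-fold above its WT partner (1.37 to 2.11). The fitted log2 fold change was 0.35 ± 0.29 (SE, adjusted p = 0.895). Gimap3, whose product sits on mitochondria and the endoplasmic reticulum and is reported to bind Bcl-2 family proteins, had 797 CPM in WT spleen, 741 in Csnk2b-deficient spleen, 242 in WT lymph node and 347 in Csnk2b-deficient lymph node. Its ratio lay below 1 in the spleen pair (0.929-fold, 0.894 to 0.966) and above 1 in the lymph node pair (1.44-fold, 1.33 to 1.56), with a fitted log2 fold change of 0.20 ± 0.20 (SE, adjusted p = 0.901). Gimap5 and Gimap3, the pair with near-identical stretches, thus had the same order of libraries by CPM.

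Gimap4 encodes a member linked to T cell apoptosis and to Bax. Its level was 1153 CPM in WT spleen, 1234 in Csnk2b-deficient spleen, 1852 in WT lymph node and 3153 in Csnk2b-deficient lymph node. In both tissues the Csnk2b-deficient library was the higher one, by 1.07-fold in the spleen (1.04 to 1.11) and 1.70-fold in the lymph nodes (1.66 to 1.75). The fitted log2 fold change was 0.43 ± 0.19 (SE) with an unadjusted p of 0.0420 and an adjusted p of 0.89. All Gimap4 exon reads were uniquely placed in all 4 libraries.

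Gimap6, whose product binds the autophagy protein GABARAPL2, had 747 CPM in WT spleen, 772 in Csnk2b-deficient spleen, 1616 in WT lymph node and 2392 in Csnk2b-deficient lymph node. The interval of the spleen ratio included 1 (1.03-fold, 0.995 to 1.08), and the lymph node ratio was 1.48-fold (1.44 to 1.53), with a fitted log2 fold change of 0.31 ± 0.18 (SE, adjusted p = 0.89). Gimap8, the member with 3 GTP-binding domains, had 738 CPM in WT spleen, 774 in Csnk2b-deficient spleen, 248 in WT lymph node and 401 in Csnk2b-deficient lymph node. Its ratios were 1.05-fold in the spleen (1.01 to 1.09) and 1.62-fold in the lymph nodes (1.496 to 1.75), with a fitted log2 fold change of 0.38 ± 0.20 (SE, adjusted p = 0.89). Gimap9 had the smallest lymph node ratio among the 7 members above 1 there. Its 170, 162, 397 and 465 CPM, in the order WT spleen, Csnk2b-deficient spleen, WT lymph node and Csnk2b-deficient lymph node, gave ratios of 0.953-fold (0.876 to 1.04) and 1.17-fold (1.099 to 1.25) and a fitted log2 fold change of 0.08 ± 0.20 (SE, adjusted p = 0.962).

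Gimap7, a member with strong GTPase activity, had the fewest counted exon reads in the spleen and the largest ratio in the lymph node pair. Its exon reads numbered 80 in WT spleen, 86 in Csnk2b-deficient spleen, 154 in WT lymph node and 626 in Csnk2b-deficient lymph node, or 10.2, 14.9, 37.6 and 137 CPM in the same order. The Csnk2b-deficient library was higher in both tissues, by 1.47-fold in the spleen (1.07 to 2.01) and 3.65-fold in the lymph nodes (3.05 to 4.38). The fitted log2 fold change was 1.25 ± 0.38 (SE) with an unadjusted p of 0.00792 and an adjusted p of 0.595. With limma-voom it was 1.502 with an adjusted p of 0.0491, and over 13 alternative settings the adjusted p ran from 0.0491 to 1.0.

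**Figure D2:**
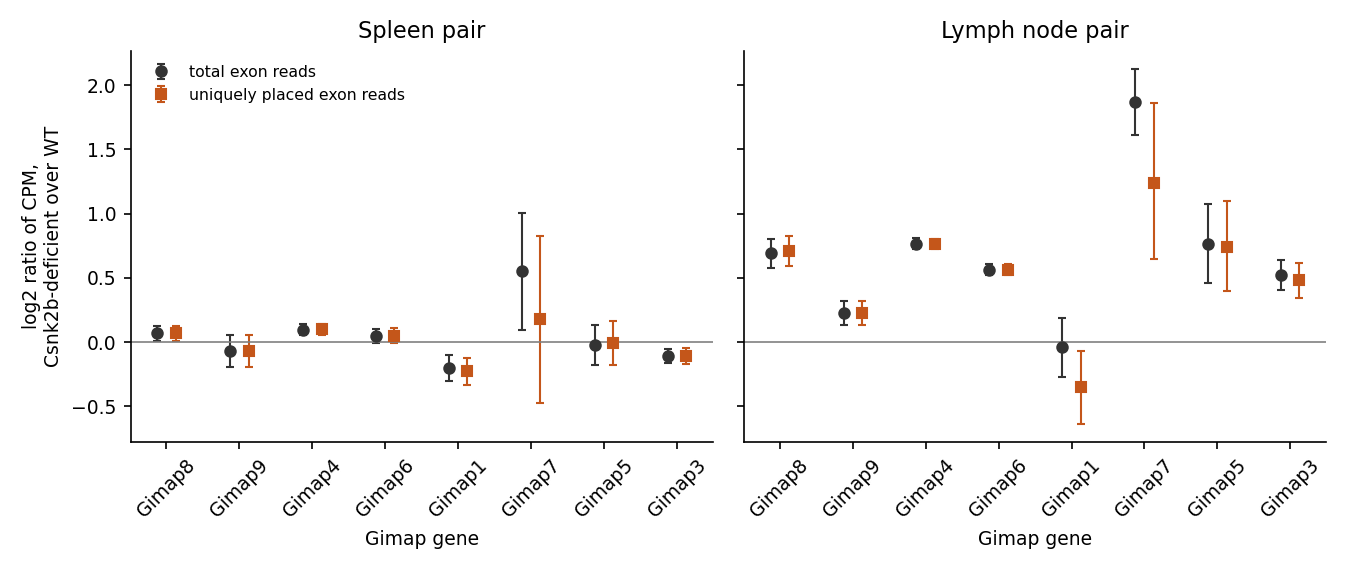
Log2 ratio of CPM, Csnk2b-deficient over WT, of each Gimap gene in the spleen pair (left) and the lymph node pair (right), from total exon reads (circles) and uniquely placed exon reads (squares); bars are 95% Clopper-Pearson intervals of the read ratio and cover counting error only, with 1 library per genotype. In the spleen the circles run from a ratio of 0.870-fold (Gimap1) to 1.47-fold (Gimap7), and in the lymph nodes 7 of 8 circles lie above 0, with Gimap7 highest and its square lower than its circle.

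The difference between the log2 ratios of the lymph node pair and the spleen pair ran from 0.16 (Gimap1) to 1.32 (Gimap7). It was positive for each member. The share of all genes tested with a positive difference was not computed, so nothing is drawn from that count about the family. The difference was not tested, because with 1 library per genotype and tissue it supplies the only residual degree of freedom of the fit. Other markers also differed between the lymph node libraries. The 6 myeloid and dendritic markers summed to 9.89 and 6.75 CPM in the WT and Csnk2b-deficient spleen libraries, and to 46.2 and 295 CPM in the lymph node libraries. Nearly all of that in the lymph nodes was Lyz2, with 187 reads in the WT and 1291 in the Csnk2b-deficient lymph node library, while Cd14, Itgax and Flt3 had at most 3 reads in any library. Csf1r had 0 reads in the WT and 38 in the Csnk2b-deficient lymph node library, and Itgam had 2 and 13. The 4 T cell markers summed to 4546 CPM in WT and 5351 CPM in Csnk2b-deficient lymph node. The part of these markers in the Gimap ratios was not tested. Of the markers of endothelium, which also expresses Gimap genes, Tek had 0 reads in all 4 libraries, Cdh5 at most 1 and Kdr at most 2. Pecam1, which lymphocytes share, made up nearly all of that list's 101 to 248 CPM. B cell markers summed to 15.6 to 148 CPM with Pax5 at 0 throughout. CD8 T cell markers summed to 12.5 to 52.6 CPM. NK cell markers summed to 9.77 and 4.50 CPM in the WT and Csnk2b-deficient spleen libraries, and to 1.22 and 10.3 CPM in the lymph node libraries. Ncr1 had 0 reads throughout. Klrb1c had 5 reads in the WT and 32 in the Csnk2b-deficient lymph node library, and Eomes had 0 and 15. The erythroid markers Hbb-b1 and Hba-a1 set the WT lymph node library apart, with 93 and 78 reads there against 8 and 10 in the Csnk2b-deficient lymph node library and at most 2 in either spleen library. The part of these markers in the Gimap ratios was not tested either.

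The Gimap1 and Gimap7 values were not independent of each other, since all of Gimap7 lies inside the listed Gimap1 interval. Reads counted in a gene's total but not as uniquely placed are called shared here. In Gimap7, 58.8% of exon reads were uniquely placed in WT spleen, 45.3% in Csnk2b-deficient spleen, 21.4% in WT lymph node and 13.9% in Csnk2b-deficient lymph node. Every uniquely placed exon read of Gimap7 was an exon-exon read, one that spans a splice junction, and their numbers were 47 in WT spleen, 39 in Csnk2b-deficient spleen, 33 in WT lymph node and 87 in Csnk2b-deficient lymph node. On these reads the Csnk2b-deficient library was 1.13-fold the WT library in the spleen (0.721 to 1.77) and 2.37-fold in the lymph nodes (1.57 to 3.65). The lymph node ratio of Gimap7 was therefore above 1 on total and on uniquely placed exon reads, and smaller on the latter. Total reads include the uniquely placed ones, so these ratios are not independent of each other.

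Gimap1 held many reads outside its exons. Of its gene reads, 60.8% fell outside its exons in WT spleen, 66.8% in Csnk2b-deficient spleen, 89.6% in WT lymph node and 93.7% in Csnk2b-deficient lymph node. Of the reads outside its exons, 2647, 2161, 2174 and 4428 were shared, in the same order of libraries. The shared gene reads of Gimap1 and Gimap7 summed to 364 CPM in WT spleen, 408 in Csnk2b-deficient spleen, 584 in WT lymph node and 1135 in Csnk2b-deficient lymph node, a ratio of 1.12-fold in the spleen pair (1.06 to 1.18) and 1.94-fold in the lymph node pair (1.85 to 2.04). Gimap7 accounted for 1.29%, 2.38%, 5.48% and 11.8% of these shared reads and held 1.86%, 2.24%, 4.35% and 9.99% of the uniquely placed gene reads of both genes. Both shares of Gimap7 thus had the same order over the libraries. The labels and file headers do not say how the authors assigned shared reads. Gimap5, which overlaps the other end of the listed Gimap1 interval, had 247, 179, 35 and 61 shared gene reads in the same order of libraries. With the gene reads of both genes counted as 1 row, the genotype log2 fold change was 0.39 (edgeR, adjusted p = 0.835), against -0.12 for the exon reads of Gimap1 alone. On uniquely placed exon reads, Gimap1 in the lymph node pair was 0.784-fold (0.644 to 0.954).

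**Figure D3:**
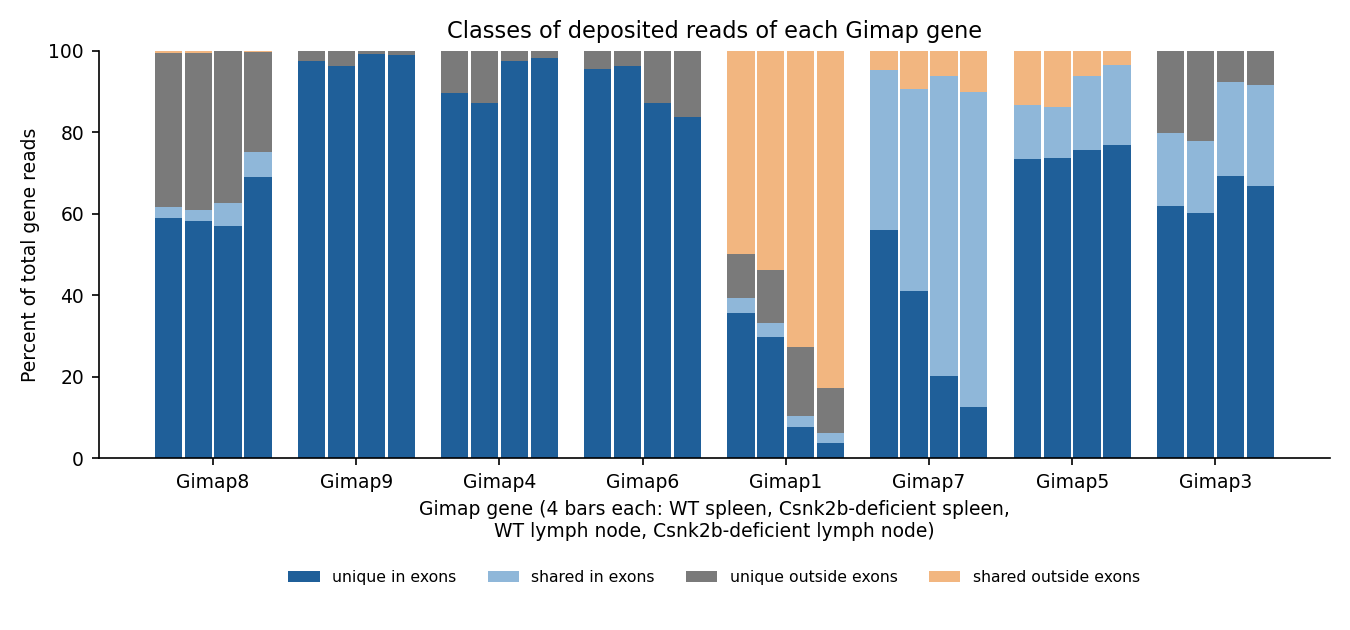
Percent of each Gimap gene's total gene reads (y axis) that were uniquely placed or shared, in exons or outside them, with 4 bars per gene in the order WT spleen, Csnk2b-deficient spleen, WT lymph node, Csnk2b-deficient lymph node. Shared reads outside exons fill most of the Gimap1 bars in the lymph nodes, shared exon reads fill most of the Gimap7 bars there, and Gimap9, Gimap4 and Gimap6 hold almost only uniquely placed reads.

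Shared reads also marked the near-identical pair. In Gimap3, 72.9% to 77.5% of exon reads were uniquely placed over the 4 libraries, and in Gimap5 79.5% to 85.4%. On uniquely placed exon reads the lymph node ratios were 1.40-fold for Gimap3 (1.27 to 1.53) and 1.68-fold for Gimap5 (1.32 to 2.14), close to those on all exon reads. Gimap9, Gimap4 and Gimap6 had 99.9% to 100% of their exon reads uniquely placed over the libraries, and Gimap8 had 90.6% to 95.7%.

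The tissues were compared next, with genotype as a covariate. The protocols give Trizol and TruSeq for samples 1 and 2, and RNeasy micro, SMARTer and Nextera XT for samples 3 and 4. If these numbers follow the order of listing, which is an assumption, the first kits belong to the spleen and the others to the lymph nodes. Tissue and kit then cannot be told apart, and a difference here describes these libraries. The summed T cell markers also differed, with 1707 and 1815 CPM in the spleen libraries against 4546 and 5351 CPM, and their part in the Gimap values was not tested. All 8 members passed the edgeR test, where 45.4% of all genes tested did. Of the 8, 4 were higher in the lymph node libraries (23.3% of all genes) and 4 lower (22.2% of all genes).

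The members higher in the lymph node libraries were Gimap7, Gimap6, Gimap9 and Gimap4. Gimap7 rose by a log2 fold change of 2.56 ± 0.40 (SE, adjusted p = 0.000357), from 10.2 and 14.9 CPM in the spleen to 37.6 and 137 CPM, WT first. Gimap6 rose by 1.37 ± 0.18 (adjusted p = 0.000123), Gimap9 by 1.37 ± 0.20 (adjusted p = 0.000229) and Gimap4 by 1.02 ± 0.19 (adjusted p = 0.00121) on the log2 scale. These include the 3 members with 99.9% to 100% uniquely placed exon reads. On uniquely placed exon reads, the Gimap7 value was 1.01 with an adjusted p of 0.239. The same Gimap7 reads, fitted among the exon-exon reads of all genes, gave 1.21 with an adjusted p of 0.0419, so without shared reads its call depended on the fit.

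The members lower in the lymph node libraries were Gimap1, Gimap3, Gimap8 and Gimap5. Gimap1 had a log2 fold change of -1.73 ± 0.22 (SE, adjusted p = 9.47e-05), Gimap3 of -1.41 ± 0.21 (adjusted p = 0.000251), Gimap8 of -1.26 ± 0.21 (adjusted p = 0.000514) and Gimap5 of -1.24 ± 0.29 (adjusted p = 0.00514). Genes of the same cluster thus stood on opposite sides of 0. In WT cells alone, the log2 ratio of lymph node over spleen ran from -1.80 (Gimap1) to 1.85 (Gimap7), and in Csnk2b-deficient cells from -1.64 (Gimap1) to 3.18 (Gimap7). Every member kept its sign in both genotypes under 4 ways of scaling the libraries. Scaling moved the values, since the median log2 ratio of all genes in WT was -0.13 with TMM factors, -0.29 with upper-quartile scaling and -0.56 with total exon reads.

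Which reads were counted changed some of these tissue values. On uniquely placed exon-exon reads, 5 of 8 members passed, where 3971 of the 7512 genes tested did. Gimap3 was at 0.07 (adjusted p = 0.910) on those reads, with 85, 44, 21 and 56 of them in WT spleen, Csnk2b-deficient spleen, WT lymph node and Csnk2b-deficient lymph node. Gimap5 was at -0.40 (adjusted p = 0.563) and Gimap4 at 0.56 (adjusted p = 0.0776). Gimap1 was at -3.07 on exon-exon reads, of which it had 152 and 114 in the spleen libraries and only 10 and 7 in the lymph node libraries, WT first. With gene reads in place of exon reads and both Gimap1 and Gimap7 as 1 row, that row was at 0.47 (adjusted p = 0.0938), on the other side of 0 from Gimap1 alone.

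**Figure D4:**
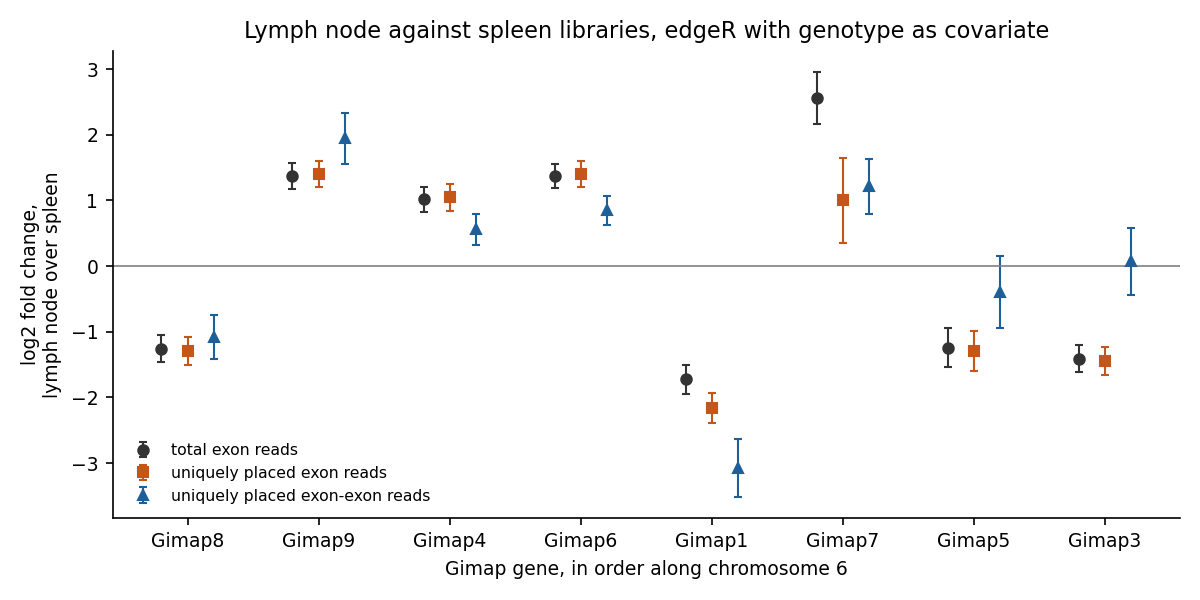
Log2 fold change of lymph node over spleen libraries (y axis) of each Gimap gene from edgeR with genotype as a covariate, counted on total exon reads (circles), uniquely placed exon reads (squares) and uniquely placed exon-exon reads (triangles); bars are 1 SE over 4 libraries. Circles and squares agree in sign for all 8 genes, and the triangle of Gimap3 lies at 0.07, next to a circle at -1.41.

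The genes around the cluster were looked at next. Within 300 kb of the outermost members, 23 other features are listed, of which 10 were tested and 5 had no read in any library. None passed the genotype test, which 0.144% of all genes did. The tissue test was passed by 5 of the 10, a share near the 45.4% of all genes. On the side of Gimap8, Krba1 (log2 fold change -2.72 ± 0.38, adjusted p = 0.000163), Zfp467 (-1.65 ± 0.44, adjusted p = 0.00986) and Lrrc61 (-1.15 ± 0.35, adjusted p = 0.0188) were lower in the lymph node libraries. On the side of Gimap3, the transmembrane genes Tmem176b (2.29 ± 0.62, adjusted p = 0.0108) and Tmem176a (2.45 ± 0.76, adjusted p = 0.0211) were higher. Of 9 flanking genes in a list of named neighbours, 6 were tested and 0 passed by genotype. Sspo and AI854703 were read at a mean of over 5 CPM and passed neither test.

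Genes whose products are tied to GIMAP function were then compared by genotype. The 11 partner genes held the Bcl-2 family members Bcl2, Bcl2l1, Bax, Bad, Bcl2l11 and Mcl1. They also held the autophagy genes Gabarap and Gabarapl2, and Gsk3b, Hspa8 and Ctnnb1. Of the 11, 0 passed the edgeR test (0.144% of all genes) and 2 had an unadjusted p below 0.05 (4.88% of all genes). Their median log2 fold change was -0.04, with 0.01 for all genes tested. The members with the largest values were Bcl2l11, which encodes the pro-apoptotic protein Bim, at -0.70 ± 0.32, Gabarapl2, the partner of GIMAP6, at 0.62 ± 0.25, and the kinase gene Gsk3b at -0.55 ± 0.26, each with an adjusted p of 0.89. Gabarapl2 had 37.4 CPM in WT spleen, 47.2 in Csnk2b-deficient spleen, 130 in WT lymph node and 239 in Csnk2b-deficient lymph node, the same order of libraries as Gimap4, Gimap6 and Gimap7.

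Of 15 genes of lymphocyte quiescence, 0 passed (0.144% of all genes) and 6 had an unadjusted p below 0.05 (4.88% of all genes). Their median log2 fold change was -0.36. In both pairs 9 of the 15 were lower (29.2% of all genes) and 2 higher (27.7% of all genes) in Csnk2b-deficient cells. Bach2, a repressor that restrains effector differentiation, was at -1.56 ± 0.30 (adjusted p = 0.119), Il7r, the receptor chain for the survival cytokine IL-7, at 1.05 ± 0.22 (adjusted p = 0.200), and Foxo1, a transcription factor of resting T cells, at -0.90 ± 0.20 (adjusted p = 0.215). The Il7r value had the sign of most Gimap values, and those of Bach2 and Foxo1 had the opposite sign.

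Another family of immune GTPases served for comparison. Of 14 interferon-inducible GTPase genes, 0 passed by genotype (0.144% of all genes) and 1 had an unadjusted p below 0.05 (4.88% of all genes). Their median log2 ratio was 0.01 for the spleen and 0.45 for the lymph nodes. Iigp1 had the largest value at 0.80 ± 0.22 (adjusted p = 0.465), followed by Gbp3 at 0.57 ± 0.26 and Gbp5 at 0.53 ± 0.33 (both adjusted p = 0.89). The Gimap genes and the interferon-inducible GTPases therefore both had medians near 0 in the spleen and above 0 in the lymph nodes. Of 7 Notch pathway genes 6 were tested and 0 passed (0.144% of all genes), with Rbpj, the DNA-binding factor of the pathway, at 0.45 ± 0.23 (adjusted p = 0.89).

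Genes with the profile most like that of the summed Gimap genes were sought among genes with a mean of at least 20 CPM, by the Euclidean distance over the 4 libraries between centred log2 CPM values. The 5 nearest were Gabarap at a distance of 0.0203, Atp5k at 0.0291, Pole3 at 0.0560, Alg12 at 0.0797 and Mettl17 at 0.0801. Each of the 5 was higher in the Csnk2b-deficient lymph node library than in the other 3, as their selection by this distance required. A profile over 4 libraries is also a coarse measure. The members themselves lay further from their own sum, from 0.540 (Gimap4) to 2.27 (Gimap1).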

How the data were processed

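RNA of sorted Tregs was counted in 4 libraries. The deposited tables give counts of reads per gene, as exon, gene and exon-exon reads, each as unique and total reads, and another column with the exon length of each gene in bases, per the file headers. The submitters' processing notes name CASAVA 1.8.2 and mm9. For the aligner, the annotation and the use of strand nothing is stated in the labels or headers, so counts of overlapping genes and paralogs are uncertain. Left out were 9551 of the 37583 features, which lack an exon length and have 0 exon reads.

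The test on total exon reads was the quasi-likelihood test of edgeR 4.0.16 (R 4.3.3) on tissue plus genotype, after TMM scaling and filterByExpr by genotype, with Benjamini-Hochberg adjustment over 11113 genes and a threshold of 0.05. The fit leaves 1 residual degree of freedom, moderated by a prior of 10.1. SEs were computed as the log2 fold change divided by the root of F. Log2 ratios within a tissue used a prior count of 2, and intervals of the folds are Clopper-Pearson at 95%. Levels per kilobase are TMM CPM over the exon length. The labels give the replicate numbers their tissue (1 spleen, 2 lymph nodes), so the numbers pair the libraries, and deviations from genotype means correlated at 0.783 within a number. Libraries of a pair differed by a chi-square per degree of freedom of 7.54 (spleen) and 30.3 (lymph nodes), beyond sampling noise. Alternatives used DESeq2 1.42.0 and limma 3.58.1 (voom), other scalings, filters and counted reads.

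Named were all members, Csnk2b, up to 3 members of each list with at least 20 CPM and the largest fold changes, neighbours within 300 kb with at least 5 CPM, and the 5 nearest profiles. The markers were named beside the results they moved with. The members and the 14 lists were chosen with earlier results of these data known. The result of 1 marker is not reported here. Identities and P-loops were computed from GENCODE M21 transcripts. Uniquely placed exon-exon reads and the row that joins Gimap1 with Gimap7 were chosen after seeing the data.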

Additional observations from a re-analysis of the deposited data

Results flagged for a closer look

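In 3 of 8 members the log2 ratio of Csnk2b-deficient over WT stood on opposite sides of 0 in the spleen and the lymph nodes. Of all genes tested, 27.7% lay above 0 in both pairs and 29.2% below 0 in both, and the others did neither. Opposite sides were thus common among all genes, and the difference was not tested, with 1 library per genotype and tissue. The spleen log2 ratio of Gimap9 was -0.07 and its lymph node log2 ratio was 0.23. For Gimap5 the values were -0.02 in the spleen and 0.76 in the lymph nodes. Gimap3 stood at -0.11 in the spleen and 0.52 in the lymph nodes. For Gimap9 and Gimap5 the counting interval of the spleen ratio included no change, and for Gimap3 it did not.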

How the results depend on the processing

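The number of the 8 members called by genotype was 0 under 9 of the 10 alternatives that kept all 4 libraries and under the 4 that left a library out, and 1 with limma-voom (Gimap7). The number of all genes called by genotype, 16, moved to 4 with median-of-ratios size factors, 111 without a filter, 54 with DESeq2, 64 with limma-voom, 7 on uniquely placed exon reads and 1 on uniquely placed exon-exon reads. Without the replicate block, that is without the tissue term, edgeR called 0 genes, with 29 at an unadjusted p below 0.05. Leaving out 1 library, which drops the tissue term and leaves 1 genotype with 1 library assumed to vary like the other, gave 0 to 1 genes. Dropping the tissue term with all 4 libraries, where each genotype keeps both tissues, reversed 0 of 8 member values by genotype. Without 1 library, 14 of 32 such values reversed. In each of those fits 1 genotype is left with 1 tissue, so the value also takes in part of the difference between tissues. The log2 ranges were -1.23 to 1.04 (Gimap1), -0.60 to 1.20 (Gimap3), -0.24 to 1.06 (Gimap4), -0.36 to 1.28 (Gimap5), -0.57 to 1.11 (Gimap6), -0.63 to 2.93 (Gimap7), -0.32 to 1.27 (Gimap8) and -0.76 to 0.91 (Gimap9). The members called by tissue fell from 8 to 5 on exon-exon reads, where Gimap3 reversed to 0.0729. Of all genes tested, 5050 of 11113 were called by tissue in the main fit and 3971 of 7512 on exon-exon reads. With gene reads in place of exon reads and Gimap1 and Gimap7 as 1 row, which changes 2 choices together, Gimap1 reversed by genotype to 0.39 and by tissue to 0.47. The causes were not tested. The summed Gimap level moved to 4649, 4775, 3887 and 5819 CPM with total-read scaling, to 4176, 4274, 4221 and 6730 with upper-quartile scaling and to 4482, 4551, 5367 and 8285 on uniquely placed reads, in the order WT spleen, Csnk2b-deficient spleen, WT lymph node and Csnk2b-deficient lymph node, and to 3934 in WT spleen with median-of-ratios factors. Depth limits the exon-exon values, with 7 to 152 such reads for Gimap1.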
